A study of Mus musculus with 24 samples.

Results

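Wnt proteins are secreted signals that bind frizzled receptors together with the co-receptors Lrp5 and Lrp6 and, in the canonical branch, stabilise beta-catenin in the receiving cell. Secreted frizzled-related proteins and Wif1 bind Wnt proteins outside the cell, dickkopf proteins act on the Lrp co-receptors, and R-spondins raise the number of frizzled receptors at the surface by way of Lgr proteins. In the prostate, Wnt signals take part in the growth of epithelial buds and in exchanges between stroma and epithelium.

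The genes described here are 44 protein-coding members of this system in the mouse. They are the genes whose symbols begin with Wnt, Fzd, Sfrp, Dkk or Rspo and a digit, apart from 1 frizzled gene, plus Lrp5, Lrp6, Frzb and Wif1. They comprise 19 Wnt ligands, 9 frizzled receptors, 2 Lrp co-receptors, 5 secreted frizzled-related proteins with Frzb, 4 dickkopf genes, 4 R-spondins and Wif1, out of 21786 protein-coding genes in the files. RNA was sequenced from anterior prostate lobes and from organoids, which are epithelial cultures grown in Matrigel from collagenase-digested anterior lobes of 3-month-old mice. The 18 organoid libraries form 6 groups of 3: wild type (WT), Brca1+/- (labelled HET) and Brca1-/- (labelled KO), each cultured with (plus DHT) or without (minus DHT) dihydrotestosterone, a potent androgen. The 6 tissue libraries form 3 groups of 2 with the same 3 genotype labels and no stated treatment. The medium listed for the organoids holds EGF, Noggin, R-Spondin, the TGF-beta receptor inhibitor A83-01, Y27632, N-acetylcysteine and B27, so the cultures were given an R-spondin from outside. The labels do not name the part of Brca1 deleted, a Cre driver, the age of the mice behind the tissue libraries, or whether libraries of a group came from separate mice or cultures. The p-values therefore measure only the spread between these libraries, which may be technical.

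The libraries held 11965815 to 58445041 estimated reads, and levels in each library are given as CPM, read counts scaled to library size. WT organoid plus DHT 1 was the smallest library, with 28.1% of its reads on Lars2. The HET and KO organoid minus DHT libraries numbered 1 stood apart with 9.43% and 10.01% of reads on mitochondrial genes, against 1.60% to 5.39% in the other 22. Tissue libraries WT 2 and HET 1 held 153000 and 36300 CPM of summed seminal vesicle markers, against at most 10.7 CPM in the other 4. As a check of the epithelial label, summed luminal markers read 7830 to 8780 CPM and basal markers 4050 to 6440 CPM in organoids, while prostate secretory genes summed to at most 2.88 CPM there against 2710 to 56400 CPM in tissue. Brca1 did not follow its labels: it averaged 14.3 ± 0.574 CPM in WT, 17.6 ± 1.90 in HET and 11.3 ± 1.18 in KO organoids plus DHT (SD, n = 3), and 13.5 ± 1.59, 19.4 ± 1.56 and 11.9 ± 1.53 minus DHT. In tissue Brca1 was 3.68 and 2.76 CPM in WT libraries, 2.99 and 2.59 in HET libraries and 3.34 and 1.88 in KO libraries. Since the deleted part is not named, these gene totals do not check the deletion, and groups are called by their labels.

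Promoter sequence is shown for 4 members on which the comparisons turn or that hold a searched motif. Of the 44 members, 29 were matched to the RefSeq promoter windows on build GRCm38.p6, of which the 250 bases before the start were used. Capitals mark any match to CTTTGA, the core bound by TCF/LEF factors of the canonical branch, or to TATAAA, the TATA box, on either strand, and neither motif overlaps the other in these 4. Wif1 and Fzd4 differed between genotypes in organoids, and Fzd1 and 1 of the Wnt11 windows hold the TCF/LEF core. The Wif1 and Fzd4 sequences stop where the annotated gene begins.
Wif1 (chr10:121033754-121033959, plus strand): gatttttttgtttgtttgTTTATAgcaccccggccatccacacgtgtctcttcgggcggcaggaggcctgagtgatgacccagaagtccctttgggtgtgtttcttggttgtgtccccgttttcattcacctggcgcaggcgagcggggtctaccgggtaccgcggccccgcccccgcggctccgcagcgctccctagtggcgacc
Fzd4 (chr7:89404116-89404354, plus strand): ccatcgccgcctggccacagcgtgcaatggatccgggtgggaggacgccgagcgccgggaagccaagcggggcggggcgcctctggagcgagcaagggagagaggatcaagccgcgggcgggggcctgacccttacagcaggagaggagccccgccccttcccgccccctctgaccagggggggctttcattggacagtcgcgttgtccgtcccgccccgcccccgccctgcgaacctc
Fzd1 (chr5:4758217-4758466, minus strand): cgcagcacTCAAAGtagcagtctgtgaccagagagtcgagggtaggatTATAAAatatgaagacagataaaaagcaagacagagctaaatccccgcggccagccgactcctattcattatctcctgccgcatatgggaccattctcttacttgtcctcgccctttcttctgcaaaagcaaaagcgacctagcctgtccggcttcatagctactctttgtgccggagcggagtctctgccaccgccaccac
Wnt11 (chr7:98834862-98835111, plus strand): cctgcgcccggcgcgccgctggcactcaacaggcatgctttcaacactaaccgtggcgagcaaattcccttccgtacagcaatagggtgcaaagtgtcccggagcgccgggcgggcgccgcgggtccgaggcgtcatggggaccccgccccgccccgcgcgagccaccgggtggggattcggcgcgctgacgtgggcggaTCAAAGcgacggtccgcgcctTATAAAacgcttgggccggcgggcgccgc

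The TCF/LEF core was present in the windows of 5 of the 29 members (Dkk1, Frzb, Fzd1, Wnt11 and Wnt5b), and 13.8% of all 32851 windows of that length held it. The half-site AGAACA, which androgen and glucocorticoid receptors share, was present in those of Dkk2, Wnt5b and Wnt8b, against 16.1% of all windows. TATAAA was found for Dkk1, Dkk2, Fzd1, Wif1 and Wnt11, against 12.4% of all windows. Some windows, set by the RefSeq start, reach into the annotated gene. Only Fzd1 and Wnt11 held the TCF/LEF core wholly before it. The Wnt5b windows with a match and the TATAAA of Dkk1 lie inside the annotated gene. Neither Wif1 nor Fzd4 held the TCF/LEF core or the half-site. Member windows were rich in G and C, with a median of 67.4% against 52.4% over all windows. These matches describe the letters only.

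In organoids the ligand pool was dominated by Wnt7b and the receptor pool by Fzd7 and Fzd6. Levels between genes are compared here in TPM, the transcript share that is also scaled by length. Wnt7b, a ligand of many epithelia, averaged 44.6 ± 10.1 TPM over the 18 organoid libraries (SD) and made up 45.6% to 56.5% of the summed TPM of the 19 ligands. Wnt4 at 13.5 ± 3.28 TPM and Wnt10a at 12.7 ± 5.58 TPM followed, and their order depended on the group. In HET organoids plus DHT Wnt4 lay above Wnt10a without overlap, at 11.7 to 15.3 against 6.85 to 8.72 TPM, while in WT minus DHT Wnt10a averaged 19.5 and Wnt4 14.1 TPM with overlapping libraries. Below them came Wnt5a at 6.12 ± 2.53, Wnt9a at 4.66 ± 1.10 and Wnt7a at 2.69 ± 0.903 TPM. Wnt6 and Wnt11 lay close to 1 TPM, at 1.05 ± 0.741 and 1.02 ± 0.329.

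The remaining 11 ligands were near the floor of detection in organoids. Wnt10b and Wnt5b averaged 0.143 and 0.109 TPM. Wnt1, Wnt2, Wnt2b, Wnt3, Wnt3a, Wnt8b and Wnt16 had 1 to 15 reads each in the 18 libraries together, and Wnt8a and Wnt9b had none. A count of 0 in those libraries allows up to 3 reads and covers counting error only.

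Among frizzled receptors, Fzd7 averaged 47.0 ± 7.45 TPM and Fzd6, a receptor tied to planar polarity, 34.2 ± 6.95 TPM in organoids. Fzd1 (12.5 ± 3.21 TPM), Fzd4 (9.65 ± 1.64 TPM) and Fzd5 (4.16 ± 0.429 TPM) followed in that order. Fzd8 was lower at 1.11 ± 0.355 TPM, and Fzd3, Fzd9 and Fzd10 were at 0.136, 0.133 and 0.0154 TPM. The co-receptors were abundant, with Lrp5 at 38.9 ± 8.42 TPM and Lrp6 at 23.2 ± 2.35 TPM.

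Among secreted modulators Wif1 stood far above the others in organoids. It averaged 54.4 ± 15.8 TPM, the highest mean of all 44 members over the 18 libraries. This gene total includes an annotated retained-intron transcript, which took 23.2% of the pooled organoid reads of Wif1. In HET Wif1 averaged 39.4 TPM plus DHT and 39.1 minus DHT, below Fzd7 (44.0 and 44.7) and Lrp5 (40.3 and 40.6). Plus DHT it was also below Wnt7b (44.0) there. Dkk3, a divergent dickkopf that is not known to block Lrp in the usual way, averaged 4.11 ± 0.954 TPM. The 5 secreted frizzled-related genes summed to 0.0642 to 0.326 TPM per library, and the 4 R-spondins to at most 0.209 TPM. Sfrp2, Sfrp5, Frzb, Rspo3 and Dkk4 had 0 reads in all 18 organoid libraries. Dkk1 and Dkk2 averaged 0.0469 and 0.0285 TPM.

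**Figure D1:**
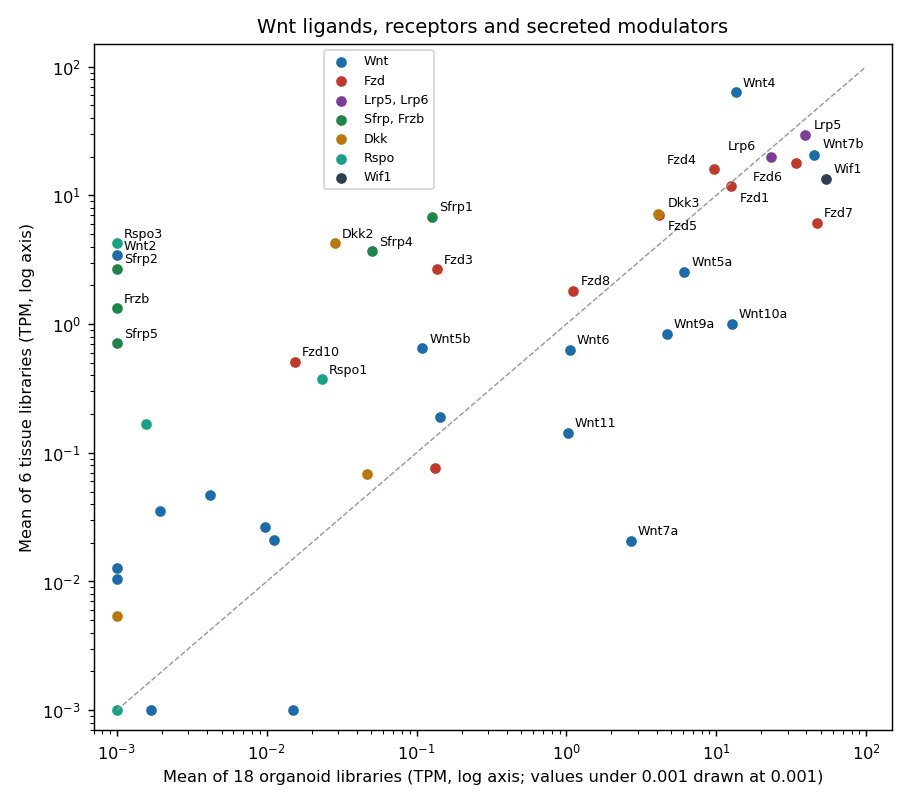
Each point is 1 of the 44 members, placed by its mean TPM over 18 organoid libraries (horizontal log axis) and over 6 tissue libraries (vertical log axis) and coloured by family, with equal levels on the dashed line. Wnt7a, Wnt10a, Fzd7 and Wif1 lie far below the line, whereas Rspo3, Wnt2, Sfrp2, Frzb and Sfrp5 lie at the left edge, with at most 1 read in all organoid libraries.

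Anterior lobe tissue differed from organoids plus DHT in most members, as it did over the transcriptome. Of the 44 members, 33 passed the filter on low counts in this comparison, and 28 of these passed the test, 17 higher and 11 lower in tissue (edgeR quasi-likelihood test, adjusted p under 0.05). Over all 17626 genes tested 75.4% passed (42.1% higher, 33.3% lower). Of these 33, Dkk2, Fzd10, Frzb, Rspo1, Rspo2, Rspo3, Sfrp2, Sfrp5 and Wnt2 passed the filter through tissue alone, and Wnt7a, Wnt11 and Fzd9 through organoids alone. Such a filter favours a difference for these genes, though Fzd9 did not pass the test. Their levels and the count are therefore given as a description. The median log2 difference was 0.52 over the 33 members and 0.19 over all genes. In bulk RNA, fewer cells of a type and less RNA per cell cannot be told apart.

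Wnt4 took the leading place among ligands in 5 of the 6 tissue libraries. In tissue it read 170 and 35.4 CPM in WT libraries, 142 and 222 in HET libraries and 177 and 219 in KO libraries. In organoids plus DHT it read 43.5, 59.3 and 57.1 CPM for WT, 47.0, 51.3 and 38.8 for HET and 34.4, 42.1 and 43.2 for KO. All tissue libraries except WT 2 lay above every organoid library, and the log2 difference was 1.76 ± 0.261 (SE, adjusted p = 5.88e-05, edgeR). Wnt4 made up a mean of 63.5% of summed ligand TPM in tissue, with a range of 28.7% to 73.8%, against 15.6% in organoids. In WT tissue 2 Wnt7b led, with 13.5 TPM (36% of the ligand sum) against 10.7 TPM for Wnt4 (28.7%).

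Wnt2, a ligand made by mesenchyme in many organs, was present in tissue and nearly absent from organoids. It read 5.37 and 6.09 CPM in WT libraries, 5.61 and 3.78 in HET libraries and 3.52 and 3.81 in KO tissue libraries, against 1 read in the 9 organoid libraries plus DHT. The ratio was 1610, with a counting interval of 289 to 63500. Wnt5b was also higher in tissue, by 3.34 ± 0.428 log2 units.

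The other called ligands were lower in tissue. Wnt7b read 33.7 and 33.0 CPM in WT libraries, 43.3 and 45.0 in HET libraries and 41.1 and 40.7 in KO tissue libraries, all below the 99.5 to 125 CPM of organoids plus DHT (log2 difference -1.48 ± 0.0736, adjusted p = 5.02e-09, edgeR). Wnt7a read 4.30 to 7.70 CPM in these organoids and at most 0.170 CPM in tissue, where 9 reads were counted in 6 libraries, and Wnt11 read 0.465 to 1.80 and 0.0378 to 0.462 CPM. Wnt10a (-3.82 ± 0.264 log2 units) and Wnt9a (-2.78 ± 0.153) were lower as well. Wnt5a was lower by 1.20 log2 units on average (SE 0.353, adjusted p = 0.00817), yet its groups overlapped: WT tissue 2 read 25.1 CPM and the other 5 tissue libraries 3.13 to 9.67 CPM. Wnt6 and Wnt10b did not pass the test, at -0.66 ± 0.450 and 0.52 ± 0.538.

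Receptors moved in both directions. Fzd7 read 13.6 and 24.3 CPM in WT libraries, 25.1 and 12.4 in HET libraries and 15.0 and 14.0 in KO tissue libraries, against 137 to 177 CPM in organoids plus DHT, a log2 difference of -3.14 ± 0.179 (adjusted p = 1.57e-08, edgeR). Fzd6 read 51.0 and 19.3, 60.3 and 41.4, and 48.5 and 32.6 CPM in the same order, all below these organoids (-0.96 ± 0.183 log2 units, adjusted p = 4.39e-04). In TPM, HET tissue 1 at 30.3 lay above the HET libraries of these organoids, at 23.3 to 27.2. Fzd3 rose from 0.489 to 1.28 CPM in these organoids to 15.3 to 29.9 CPM in tissue. Fzd10 read at most 0.116 CPM in these organoids and 0.716 to 1.23 CPM in tissue. Fzd8 and Fzd5 were higher by 0.64 ± 0.104 and 0.43 ± 0.157, with overlapping groups. The Fzd5 call was lost without tissue library WT 1, HET 1 or KO 1 or organoid library HET plus DHT 1. Fzd1 (-0.32 ± 0.140), Fzd4 (0.26 ± 0.206) and Fzd9 (-1.18 ± 0.577) did not pass the test.

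Both co-receptors were lower in tissue. Lrp5 read 49.1 and 70.2 CPM in WT libraries, 113 and 83.3 in HET libraries and 71.2 and 77.9 in KO tissue libraries, against 132 to 188 in organoids plus DHT (-0.96 ± 0.108 log2 units, adjusted p = 5.37e-06, edgeR). Lrp6 read 78.2 and 88.3, 136 and 60, and 80.0 and 55.0 CPM in the same order, against 136 to 177 in these organoids (-0.87 ± 0.157, adjusted p = 2.66e-04). In CPM neither gene overlapped between tissue and organoids plus DHT, though HET tissue 1 came close to the lowest of these organoid libraries for Lrp6. Against organoids minus DHT both genes overlapped in CPM, with Lrp5 at 103 CPM in KO minus DHT 1 and Lrp6 at 121 in KO minus DHT 3. In TPM both genes also overlapped with organoids plus DHT. HET tissue 1 read 39.9 TPM for Lrp5 and 34.0 for Lrp6, against 31.6 to 45.2 and 19.1 to 25.5 TPM in organoids plus DHT.

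Secreted modulators other than Wif1 were higher in tissue throughout the tested members. Rspo3, an R-spondin known from mesenchyme, read 3.85 and 28.9 CPM in WT libraries, 2.99 and 2.86 in HET libraries and 3.64 and 5.81 in KO tissue libraries. Against the 3 reads that a count of 0 allows over the 9 organoid libraries plus DHT, its tissue mean was at least 915-fold higher, and at least 437-fold higher without WT tissue 2. On the same scale Sfrp2 was at least 369-fold (264-fold without that library), Frzb at least 187-fold and Sfrp5 at least 92.7-fold higher. Rspo2 was at least 43.0-fold higher, but it read 1.89 CPM in WT tissue 2 and at most 0.292 CPM in any other, and without WT tissue 2 the bound was 8.42-fold. Its call was lost without WT tissue 2, HET tissue 1 or either KO tissue library. Rspo1, with 2 reads in these organoids, had a ratio of 68.6 with a counting interval of 19.0 to 566. Rspo4 had 1 read in the whole series.

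Sfrp1 read 24.4 and 22.0 CPM in WT libraries, 31.0 and 11.1 in HET libraries and 12.6 and 9.11 in KO tissue libraries, against 0 to 0.495 in organoids plus DHT (5.96 ± 0.337 log2 units, adjusted p = 1.46e-08, edgeR). Sfrp4 read 4.76 and 0.869, 8.26 and 1.15, and 1.47 and 0.394 CPM in the same order, against 0 to 0.582 (4.06 ± 0.766, adjusted p = 4e-04). All organoid reads of Sfrp4 were assigned to ENSMUST00000222464, which held 15.8% of its pooled reads in tissue, so this difference sets partly different transcripts against each other. Dkk2, an Lrp antagonist or agonist by context, read 12.3 and 4.01, 15.9 and 8.03, and 8.80 and 7.14 CPM against at most 0.233. Dkk3 read 14.8 and 4.84, 22.2 and 14.1, and 15.0 and 14.5 CPM, and its call (0.62 ± 0.204, adjusted p = 0.0147) was lost without WT tissue 1 (adjusted p = 0.0900). Dkk1 and Dkk4 were near 0 in both materials.

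Wif1 went the other way. It read 14.4 and 34.9 CPM in WT libraries, 9.62 and 9.22 in HET libraries and 10.1 and 13.0 in KO tissue libraries, and 48.0 to 132 CPM in organoids plus DHT, without overlap (-2.49 ± 0.197 log2 units, adjusted p = 2.58e-07, edgeR).

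Markers of stromal cells moved with this comparison. All 13 fibroblast and smooth muscle markers were higher in tissue, with sums of 722 to 5510 CPM against 10.3 to 45.9 CPM in the 18 organoid libraries, and Des was at 0 in 17 of these 18. All 8 endothelial markers were higher too, and Emcn was at 0 in all 18 organoid libraries. Among basal markers 6 of 7 were lower in tissue, with Krt5 at 40.8 to 229 CPM against 1350 to 2650 CPM in organoids. The part of cell makeup in the differences of these members was not tested. WT tissue 2, which had the highest stromal sum and the most seminal vesicle RNA, was also the highest tissue library for Rspo3, Sfrp2, Wif1 and Wnt5a and the lowest for Wnt4, Fzd4 and Fzd6. HET tissue 1, with the lowest stromal sum (722 CPM), was the highest tissue library for Sfrp1, Sfrp4, Frzb, Dkk2 and Dkk3. Of the fibroblast markers, Dcn was also highest there, at 177 CPM. Without WT tissue 2 and HET tissue 1, 29 members passed, among them Fzd1 and Fzd9 and not Rspo2.

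**Figure D2:**
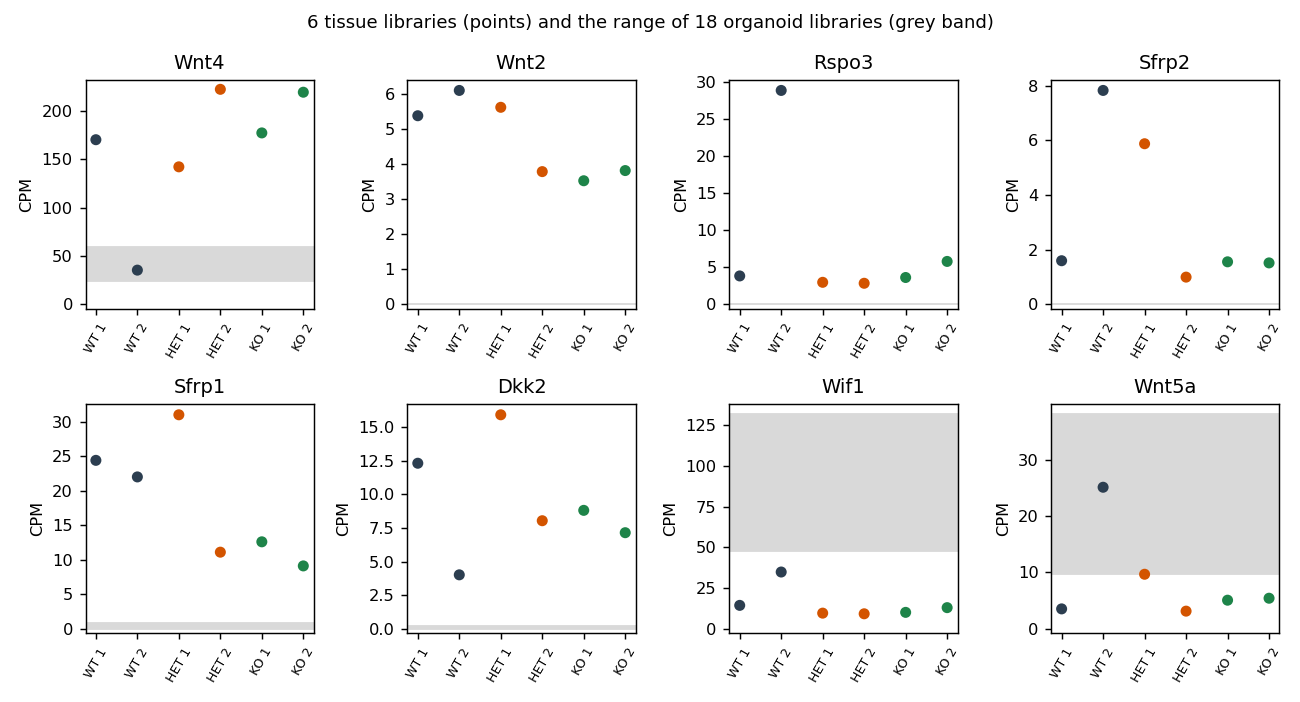
CPM of 8 members in each of the 6 tissue libraries (points, by genotype label and replicate), with the range of the 18 organoid libraries as a grey band. WT 2 stands apart for Rspo3 at 28.9 CPM and for Wnt4 at 35.4 CPM, and it is the 1 tissue library inside the organoid band of Wnt4.

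Between genotypes in tissue, no member passed the test. Among 30 members tested, 0 passed in HET against WT, KO against WT and KO against HET with edgeR, where 0 of 16753 genes (0%) passed in each, and 0 passed with DESeq2. At an unadjusted p under 0.05 there were 2 members in HET against WT, Rspo3 at -2.47 ± 0.921 and Wif1 at -1.38 ± 0.478 log2 units, and 0 in the other comparisons. For both, WT tissue 2 was the high library.

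In organoids, Wnt5a was ordered by genotype label in both media, lowest in WT and highest in KO. Wnt5a is the main ligand of the beta-catenin-independent branch and signals through Ror receptors. Plus DHT it read 9.65, 11.0 and 10.3 CPM for WT, 16.9, 16.4 and 22.8 for HET and 29.3, 27.9 and 31.8 for KO. Minus DHT it read 11.0, 13.3 and 12.4 for WT, 22.3, 21.3 and 22.9 for HET and 38.1, 32.6 and 30.6 for KO. No library of one genotype overlapped another within a medium.

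The tests followed that order. KO exceeded WT by 1.51 ± 0.132 log2 units plus DHT (adjusted p = 3.72e-06, edgeR) and by 1.46 ± 0.129 minus DHT (adjusted p = 3.77e-06). HET exceeded WT by 0.85 ± 0.131 (adjusted p = 6.77e-04) and 0.86 ± 0.128 (adjusted p = 4.27e-04). KO exceeded HET by 0.66 ± 0.127 plus DHT (adjusted p = 0.00770) and 0.61 ± 0.127 minus DHT (adjusted p = 0.0159). The last call was lost without HET minus DHT 2 or KO minus DHT 1, with an adjusted p of up to 0.288 over all alternatives. The comparisons share groups and are not independent of each other. Both main protein-coding transcripts of Wnt5a showed the order: plus DHT, ENSMUST00000063465 averaged 5.67, 9.96 and 16.9 CPM in WT, HET and KO, and ENSMUST00000112272 averaged 4.58, 8.55 and 12.5 CPM. In tissue Wnt5a read 3.53 and 25.1 CPM in WT libraries, 9.67 and 3.13 in HET libraries and 5.07 and 5.42 in KO libraries, with no such order.

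The summed stromal markers did not run in the same order. Among genes of contractile cells, Acta2 and Tagln did, while Myh11 and Cnn1 did not. The sum was 25.1 to 34.8 CPM in WT, 10.3 to 15.3 in HET and 25.5 to 45.9 in KO organoids, mostly Dcn, while Lum, Des and Actg2 were at or near 0. Acta2 read 0.465 to 0.660 CPM in WT, 0.779 to 1.09 in HET and 2.34 to 4.26 in KO plus DHT, and 0.116 to 0.547, 0.754 to 0.943 and 2.53 to 4.66 minus DHT. Tagln read 0.116 to 0.422, 0.609 to 0.809 and 1.54 to 2.61 CPM plus DHT, and 0.367 to 0.453, 0.490 to 1.02 and 1.33 to 3.13 minus DHT. Like Wnt5a, neither gene overlapped between genotypes within a medium. Myh11 and Cnn1 were low and overlapped between genotypes in both media. Myh11 minus DHT read 0.135 to 0.147 CPM in WT, 0.169 to 0.383 in HET and 0.0858 to 0.241 in KO. Cnn1 plus DHT read 0.0888 to 0.116, 0.0243 to 0.0558 and 0.0454 to 0.223 CPM. Col1a1 plus DHT read 0.555 to 0.855, 0.431 to 0.446 and 0.297 to 0.657 CPM in the same order. Of the 7 stromal markers tested, Acta2 and Tagln passed as higher in KO than in WT and HET in both media, and Dcn was lower in HET. The part of stromal cells in the Wnt5a difference was not tested.

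The comparison of HET with WT called the most members. Plus DHT, 6 of the 24 members tested passed, 3 higher (Wnt5a, Dkk3, Fzd4) and 3 lower (Wnt10a, Wif1, Fzd6), where 7.51% of 15427 genes did (4.03% higher, 3.47% lower). Minus DHT, 4 of 24 passed, Wnt5a and Fzd4 higher and Wif1 and Fzd6 lower, against 7.81% (4.52% higher, 3.29% lower). The median log2 difference of the 24 was -0.10 plus DHT and -0.20 minus DHT, against -0.00368 and 0.00283 over all genes. KO against WT called 2 of 24 in each medium, Wnt5a and Dkk3, both higher, against 4.11% of genes plus DHT (2.53% higher, 1.58% lower) and 4.8% minus DHT (2.83% higher, 1.98% lower). KO against HET called 2 plus DHT (Wnt5a and Fzd6, higher), against 3.54% (1.79% higher, 1.75% lower), and 3 minus DHT (Wnt5a and Fzd6 higher, Fzd4 lower), against 2.92% (1.35% higher, 1.56% lower). In this last comparison same-numbered HET and KO libraries deviated together, though the labels state no pairing. Their mitochondrial shares also ran together, at 9.43% and 10.01% for number 1, 4.54% and 4.17% for number 2 and 2.42% and 2.61% for number 3. Whether the numbers pair the cultures was not tested. A fit of these 6 libraries with the replicate number as a block, chosen after seeing the data, called 9 of 22 members, 7 higher and 2 lower in KO, against 18.6% of genes. The added calls were Fzd1, Lrp5, Wif1, Wnt10a, Wnt5b and Wnt7b, and without the block these 6 libraries called 0.

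Fzd6 was lowest in HET. Plus DHT it read 90.0, 85.5 and 85.5 CPM for WT, 66.7, 64.2 and 65.0 for HET and 98.2, 91.3 and 92.0 for KO. Minus DHT it read 102, 107 and 112 for WT, 69.8, 78.1 and 73.3 for HET and 102, 98.1 and 93.9 for KO. All 6 HET libraries lay below all 12 others. HET was below WT plus DHT (-0.41 ± 0.0725 log2 units, adjusted p = 0.00208, edgeR) and minus DHT (-0.54 ± 0.0723, adjusted p = 1.72e-04). KO was above HET by 0.52 ± 0.0723 (adjusted p = 6.68e-04) and 0.41 ± 0.0723 (adjusted p = 0.00477). With only the libraries compared and no block, the minus DHT calls were lost, at adjusted p = 0.0513 for HET against WT and 0.417 for KO against HET. KO against WT did not pass in either medium, at 0.11 ± 0.0723 and -0.13 ± 0.0720.

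Fzd4, the receptor for Norrin as well as for Wnt proteins, was highest in HET. Plus DHT it read 50, 43.2 and 41.9 CPM for WT, 64.5, 58.3 and 65.5 for HET and 54.9, 50.7 and 48.7 for KO. Minus DHT it read 36.8, 41.1 and 40.6 for WT, 49.0, 58.2 and 54.7 for HET and 39.6, 42.0 and 41.0 for KO. HET exceeded WT by 0.48 ± 0.0949 log2 units (adjusted p = 0.00459, edgeR) and 0.45 ± 0.0943 (adjusted p = 0.00608). Minus DHT KO was below HET (-0.40 ± 0.0944, adjusted p = 0.0311), a call lost without HET minus DHT 2 or 3 or any 1 of the KO minus DHT libraries. With only the libraries compared and no block, both minus DHT calls were lost (adjusted p = 0.112 and 0.520). Plus DHT that difference was -0.29 ± 0.0940 and did not pass.

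Wif1, the inhibitor with the highest level in organoids, was lower in HET than in WT. Plus DHT it read 132, 80.7 and 92.8 CPM for WT, 63.6, 48.0 and 65.3 for HET and 85.9, 72.4 and 79.1 for KO. Minus DHT it read 107, 92.0 and 101 for WT, 53.5, 56.9 and 55.0 for HET and 75.7, 65.3 and 70.8 for KO. The highest value, 132 CPM, belongs to WT plus DHT 1, the small library rich in Lars2. HET fell by 0.79 log2 units plus DHT (SE 0.158, adjusted p = 0.00540, edgeR, and 0.0531 with only the libraries compared) and by 0.86 minus DHT (SE 0.158, adjusted p = 0.00254). KO lay between them, at -0.37 ± 0.157 and -0.50 ± 0.157 against WT, and passed against neither in either medium. The exception was the fit of KO against HET minus DHT with the replicate block above.

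Wnt10a was lower in HET than in WT plus DHT and varied widely minus DHT. Plus DHT it read 27.4, 34.9 and 29.2 CPM for WT, 15.8, 14.3 and 13.1 for HET and 16.2, 14.4 and 20.8 for KO. Minus DHT it read 35.2, 41.1 and 21.8 for WT, 11.4, 14.7 and 24.4 for HET and 15.2, 19.4 and 29.2 for KO. The HET difference plus DHT was -1.09 ± 0.289 log2 units (adjusted p = 0.0297, edgeR), and the call was lost when any 1 of the 6 libraries was left out, with adjusted p up to 0.111. Minus DHT it was -0.95 ± 0.286 and did not pass (adjusted p = 0.0562). KO against WT was -0.84 ± 0.287 and -0.61 ± 0.284, neither past the test. Its neighbour Wnt6, 6194 bases away on chromosome 1, had HET differences of -1.17 ± 0.6 and -1.70 ± 0.588 that did not pass.

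Dkk3 was higher in KO than in WT. Plus DHT it read 5.23, 7.55 and 7.44 CPM for WT, 9.32, 9.40 and 10.3 for HET and 10.5, 11.4 and 11.3 for KO. Minus DHT it read 7.77, 10.2 and 9.12 for WT, 10.8, 11.1 and 11.4 for HET and 12.5, 14.3 and 12.4 for KO. KO exceeded WT by 0.69 ± 0.135 log2 units plus DHT (adjusted p = 0.00615, edgeR) and 0.53 ± 0.132 minus DHT (adjusted p = 0.0285). The minus DHT call was lost without KO minus DHT 2 or WT minus DHT 1 or 3. It was also lost with only the libraries compared or without a low-count filter, with adjusted p up to 0.216 over all alternatives. HET exceeded WT plus DHT by 0.50 ± 0.135 (adjusted p = 0.0330, edgeR), a call lost without any 1 of the HET libraries or WT plus DHT 1 or 3. That call was also lost with only the libraries compared, without a low-count filter or without the 3 organoid libraries with the fewest reads. Minus DHT the value was 0.30 ± 0.132 and did not pass.

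**Figure D3:**
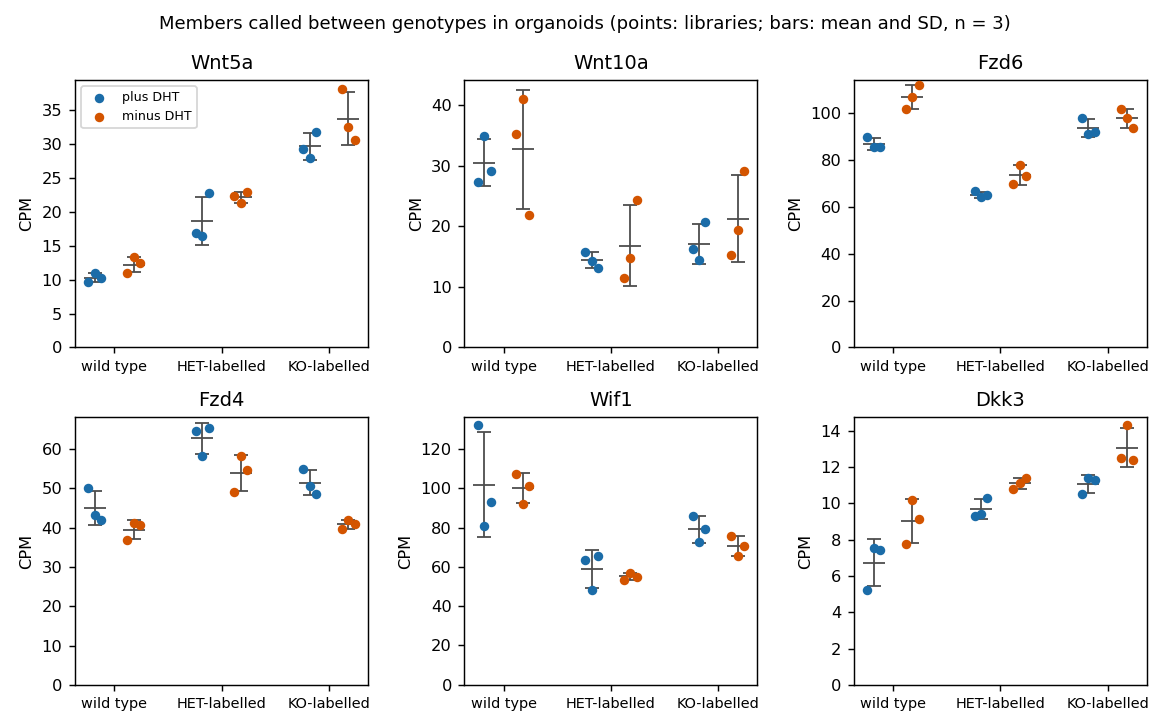
CPM of the 6 members called between genotype labels, in each organoid library (points), with mean and SD of 3 libraries per group. Wnt5a steps up from WT to HET to KO in both media, Fzd6 and Wif1 are lowest and Fzd4 is highest in HET, and Wnt10a spreads widely minus DHT.

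The other tested members did not pass. Fzd1 in KO differed from WT by 0.43 ± 0.168 log2 units plus DHT and 0.46 ± 0.167 minus DHT. Fzd8 in HET was at -0.65 ± 0.216 and -0.53 ± 0.210, Fzd9 in KO at -1.55 ± 0.609 and -1.34 ± 0.595, and Wnt5b in KO at 2.86 ± 0.846 and 1.46 ± 0.557. Wnt5b rested on 126 reads in 18 libraries. Lrp5 and Lrp6 differed by at most 0.29 log2 units in size in any of the 6 genotype comparisons.

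Withdrawal of DHT gave few calls among the members. No member passed in WT, HET or KO organoids with edgeR, where 1.3%, 0.707% and 0.557% of 15427 genes passed. The WT share divides into 0.603% higher and 0.694% lower minus DHT, that of HET into 0.344% and 0.363%, and that of KO into 0.194% and 0.363%. At an unadjusted p under 0.05 there were 5, 3 and 3 members, and DESeq2 called 1 (Fzd6, higher) in WT, 0 in HET and 1 (Fzd4, lower) in KO. Averaged over genotypes, 3 of 24 members passed, 2 higher and 1 lower, against 4.96% of genes (2.56% higher, 2.4% lower). The median log2 change of the 24 was 0.04 and that of all genes 0.02.

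In CPM, Fzd4 was lower minus DHT in every genotype without overlap, by the values listed above. In TPM the media overlapped in WT (8.22 to 9.15 plus, 7.46 to 8.89 minus) and HET (10.7 to 12.5 plus, 8.66 to 11.8 minus). The changes were -0.19 ± 0.0948, -0.22 ± 0.0940 and -0.33 ± 0.0943 log2 units in WT, HET and KO. The averaged change was -0.25 ± 0.0545 (adjusted p = 0.0135, edgeR). Fzd6 rose by 0.18 ± 0.0417 (adjusted p = 0.0182), with values of 0.30 ± 0.0723 in WT, 0.17 ± 0.0722 in HET and 0.07 ± 0.0721 in KO. The Fzd6 call was lost without WT plus DHT 3, WT minus DHT 3, HET minus DHT 2 or KO plus DHT 2 or 3. Dkk3 rose by 0.28 ± 0.0765 (adjusted p = 0.0473), and that call was lost when any 1 of 17 of the 18 libraries was left out. The changes of Fzd4, Fzd6 and Dkk3 were small, 1.13-fold to 1.21-fold in size.

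Other members missed the threshold. Sfrp1 was at 0 to 0.495 CPM plus DHT and 0.257 to 0.792 CPM minus DHT, with an averaged change of 0.97 ± 0.305 log2 units (adjusted p = 0.0940, edgeR). The averaged values were 0.22 ± 0.0738 for Wnt5a and -0.31 ± 0.128 for Wnt4. Wnt7b read 107, 125 and 110 CPM for WT, 112, 105 and 105 for HET and 105, 99.5 and 120 for KO plus DHT, and 105, 113 and 79.7, 58.1, 83.3 and 125, and 65.6, 98.1 and 132 minus DHT, a change of -0.20 ± 0.141. Wnt4 minus DHT read 40.6, 49.7 and 34.3 for WT, 28.0, 34.6 and 43.7 for HET and 24.2, 33.3 and 47.0 for KO. Fzd7 read 147, 167 and 147, 137, 157 and 177, and 140, 154 and 142 CPM plus DHT, and 193, 213 and 181, 186, 144 and 133, and 154, 150 and 133 minus DHT. In WT the Fzd7 libraries did not overlap between media (0.35 ± 0.127, adjusted p = 0.347).

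Neither co-receptor passed the test. Lrp5 read 132, 158 and 143 CPM for WT, 153, 188 and 153 for HET and 132, 132 and 142 for KO plus DHT, and 155, 192 and 135, 132, 131 and 202, and 103, 118 and 180 minus DHT, with an averaged change of 0.02 ± 0.116. Lrp6 read 177, 146 and 145, 143, 136 and 152, and 155, 153 and 147 plus DHT, and 151, 151 and 172, 168, 143 and 127, and 170, 131 and 121 minus DHT, with an averaged change of -0.02 ± 0.0762. Sfrp4, at 0 to 0.582 CPM in organoids, Dkk1, at 0 to 0.3, and Dkk2, at 0 to 0.233, stayed low in both media. Rspo1 had reads in 5 of the 18 organoid libraries and Rspo2 in 1.

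The difference in withdrawal response between genotypes passed for no member. Among 24 members, 0 passed for HET against WT, KO against WT and KO against HET with edgeR, where 0% of genes passed in each, and 0 with DESeq2. At an unadjusted p under 0.05 there was 1 in each, Wnt5b (-3.30 ± 1.07 log2 units), Fzd6 (-0.23 ± 0.102) and Wnt5b (1.90 ± 0.846).

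**Figure D4:**
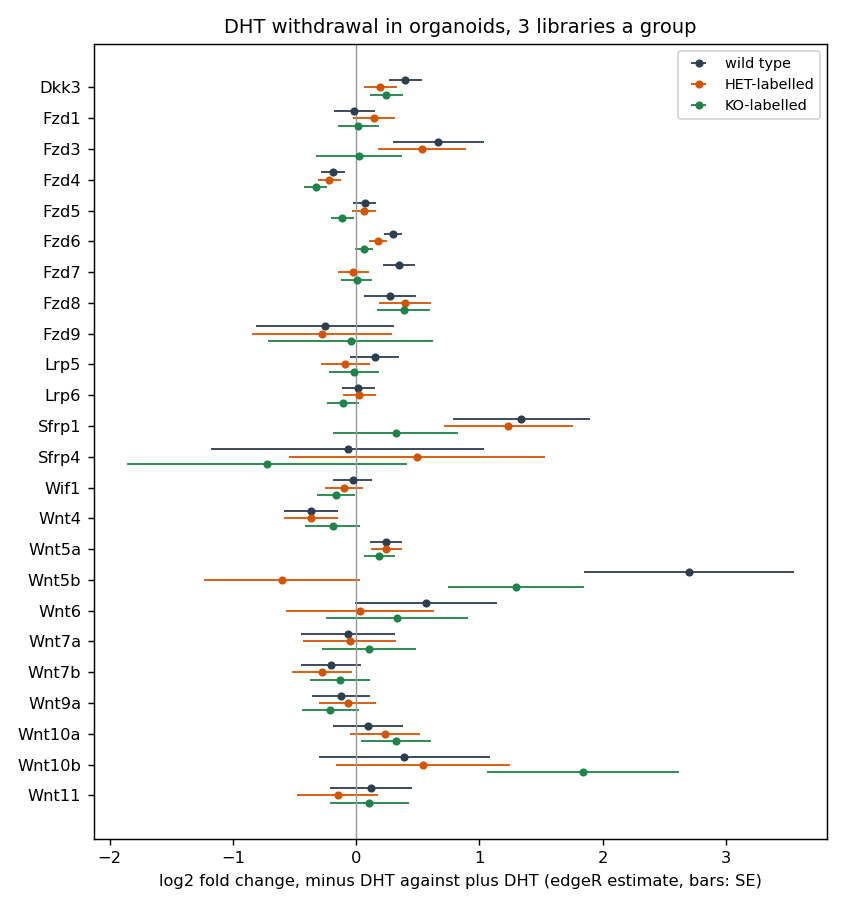
log2 change of the 24 tested members minus against plus DHT (horizontal axis, edgeR estimate) in WT, HET and KO organoids, with standard errors as bars. Fzd4 lies left of 0 and Dkk3 and Fzd6 right of 0 in all 3 genotypes, and the wide bars belong to the low-count members Wnt5b, Wnt6, Wnt10b, Fzd9, Sfrp1 and Sfrp4.

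Several ligands were lowest in the libraries with the highest mitochondrial share. In the HET and KO minus DHT libraries numbered 1, with 9.43% and 10.01% mitochondrial reads, Wnt7b read 58.1 and 65.6 CPM, the lowest 2 of the 18. Wnt4 at 28.0 and 24.2, and Wnt7a at 2.26 and 4.12 CPM, were also the lowest 2. So were genes other than ligands, such as Kremen1 (39.8 and 35.1 CPM) and Dvl1 (40.7 and 40.2 CPM). Csnk1a1 (797 and 791 CPM) and Tcf7l2 (82 and 82.3 CPM) were the highest 2. In the libraries of the same groups with 2.42% and 2.61%, Wnt7b read 125 and 132, Wnt4 43.7 and 47.0 and Wnt7a 7.79 and 9.99 CPM. Wnt9a was lowest in the KO library, at 6.91 CPM, while Wnt5a was the highest of the 18 in the KO library, at 38.1 CPM, and Fzd6 read 69.8 and 102 CPM there. With that share as a covariate, 8 members passed in HET against WT minus DHT, Wnt10a, Wnt6, Fzd7 and Lrp6 being added, and 7 in the averaged withdrawal. In the same fit the share of all genes called was 14.8% and 21.2%, against 7.81% and 4.96% without the covariate. The part of that share in the levels of Wnt7b, Wnt4 and Wnt7a was not tested.

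**Figure D5:**
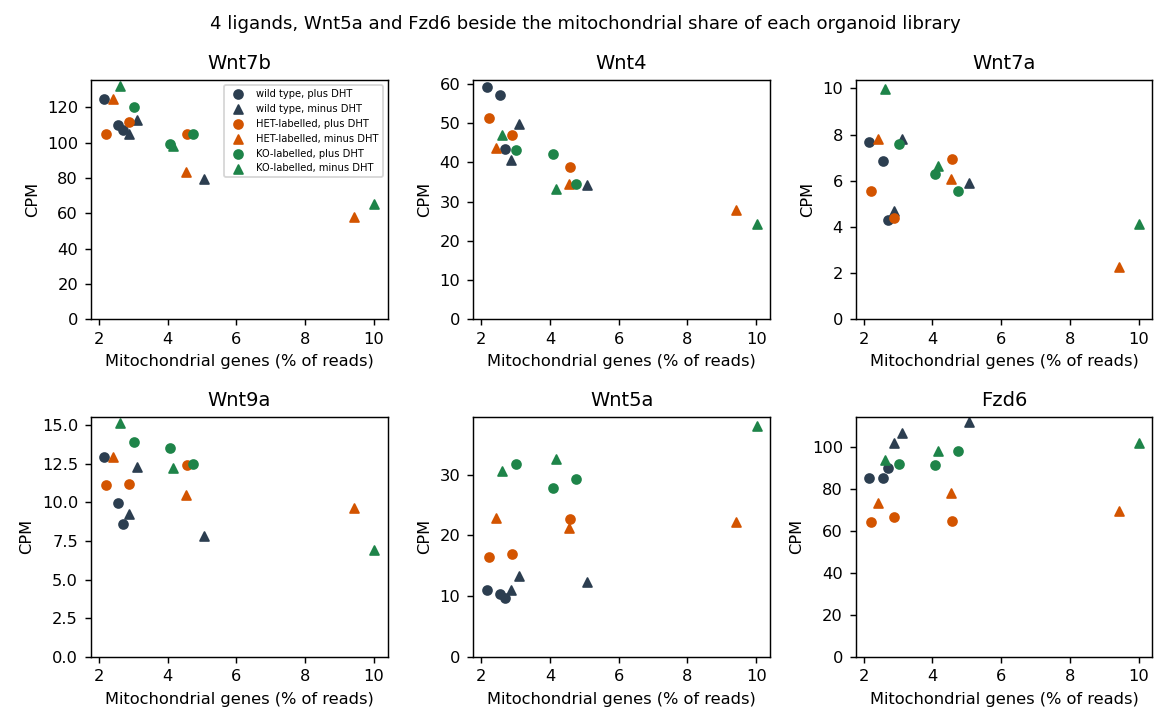
CPM of Wnt7b, Wnt4, Wnt7a, Wnt9a, Wnt5a and Fzd6 (vertical axes) against the percent of reads on mitochondrial genes (horizontal axes) in the 18 organoid libraries, by genotype label and medium. The 2 libraries at 9.43% and 10.01% are the lowest for Wnt7b, Wnt4 and Wnt7a but not for Wnt5a or Fzd6.

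Genes that act beside the members gave the following counts, from lists that share some genes. Of 22 tested partners in secretion and at the surface, 4 rose in the averaged withdrawal: Apcdd1, a membrane Wnt inhibitor, by 0.62 ± 0.0599 log2 units, Lgr5 by 2.39 ± 0.246, Lgr6 by 0.68 ± 0.0905 and Igfbp4 by 0.65 ± 0.0862 (adjusted p from 9.53e-06 to 2.09e-04, edgeR). Lgr5 and Lgr6 are R-spondin receptors, and Lgr5 stayed at or under 1.08 CPM in organoids. Of 29 intracellular transducers 0 passed, and of 14 Wnt targets Apcdd1, Lgr5 and Ccnd1 rose, where 4.96% of all genes passed. The medians were 0.15, 0.05 and 0.15 against 0.02 over all genes.

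In HET against WT plus DHT, 4 of 22 partners passed, Igfbp4 higher (1.27 ± 0.154) and Apcdd1 (-1.06 ± 0.106), Ror1 (-0.93 ± 0.230) and Tpbg (-0.49 ± 0.117) lower. Ror1 is a receptor of Wnt5a, and its level was 0.949 to 1.57 CPM in HET against 1.98 to 2.62 in WT, while Wnt5a was higher in HET. Ror2, the more abundant Ror receptor, was not called, at 14.3 to 17.3 CPM in HET and 20.4 to 21.8 in WT. Of 29 transducers 3 passed, Tcf7l1 higher and Axin2 and Vangl1 lower, and of 14 targets Axin2, Apcdd1 and Myc were lower, against 7.51% of all genes. Axin2, a feedback inhibitor of the beta-catenin branch, read 44.5, 36.4 and 38.7 CPM in WT and 18.3, 15.2 and 17.9 in HET plus DHT (-1.22 ± 0.13, adjusted p = 2.38e-05). Minus DHT, 1 of 22 partners was higher and 8 were lower in HET, with Apcdd1, Gpc4, Znrf3 and Gpc6 at the lowest p. There 1 of 29 transducers and 4 of 14 targets were lower as well, against 7.81% of all genes. The medians of partners, transducers and targets were -0.17, -0.10 and -0.38 plus DHT and -0.47, -0.15 and -0.43 minus DHT, against medians of all genes near 0.

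Against WT, KO organoids gave the following counts among 22 partners, 29 transducers and 14 targets tested. Plus DHT, where 4.11% of all genes passed, Igfbp4 and Lgr6 were higher and Apcdd1 lower among partners, Tcf7l1 higher and Axin2 lower among transducers, and Axin2 and Apcdd1 lower among targets. Minus DHT, where 4.8% passed, 2 partners were higher and 3 lower, 0 transducers were higher and 2 lower, and 1 target was higher and 4 lower. KO against HET called 4 partners plus DHT, all higher, Apcdd1, Lgr6, Ror1 and Tpbg, and 3 minus DHT, with 0 transducers and 1 target, higher, in either medium, against 3.54% and 2.92% of all genes. No gene of the 3 lists passed between tissue genotypes.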

How the data were processed

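RNA-seq was deposited for 24 mouse libraries. The authors' files hold estimated counts (reads per transcript, not normalized) and TPM from Salmon 0.13.1, per the file headers and the submitters' processing notes. Those notes name build hg38, while the transcript identifiers are mouse Ensembl ones. The index annotation, trimming and strandedness are not given in the sources used here, so reads of a gene and an overlapping antisense gene may be mixed. For each gene, named by GENCODE M21, the estimated counts of its transcripts were added up and rounded. The 922 transcripts without a gene, 0.228% to 0.327% of reads, were left out. CPM were scaled by TMM over all libraries.

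Tests were edgeR 4.0.16 quasi-likelihood tests in R 4.3.3 with filterByExpr and Benjamini-Hochberg adjustment at 0.05 over all genes tested, with group means and no covariate. The organoid fit used 18 libraries and 15427 genes, the tissue fit 6 and 16753, and the comparison of materials 15 and 17626. The fit was tested on simulated data. Alternatives were DESeq2 1.42.0, its size factors, other filters, a replicate block, a mitochondrial covariate and leaving out libraries.

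Deviations from the group means of same-numbered HET and KO organoids minus DHT correlated at 0.613, 0.231 and 0.691. For this comparison a fit of its 6 libraries with the replicate number as a block was added, though the labels state no pairing.

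Members called in any organoid comparison and the 2 highest of each family by TPM in either material were given in every library, and other lists by counts with up to 4 called genes. Members and lists were chosen with earlier results of these data known. Promoter windows are RefSeq's on GRCm38.p6.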

Additional observations from a re-analysis of the deposited data

How the results depend on the processing

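No value reversed under any alternative that was run. DESeq2 called 1 member on withdrawal in WT, 1 in KO and 4 in KO against WT minus DHT, where edgeR called 0, 0 and 2. Without a low-count filter 1 member passed in the averaged withdrawal and 1 in KO against WT minus DHT. With the mitochondrial share as covariate, where the share of all genes called also rose, the counts were 1 on withdrawal in WT (4.66% of all genes), 7 averaged (21.2%), 4 in KO against WT plus DHT (8.95%), 4 in KO against HET plus DHT (10.3%), 8 in HET against WT minus DHT (14.8%), 6 in KO against WT minus DHT (10.7%) and 5 in KO against HET minus DHT (8.58%). With only the libraries compared they were 4 in KO against WT plus DHT and 2, 1 and 0 in HET against WT, KO against WT and KO against HET minus DHT, where fewer libraries estimate the spread, and with these 6 libraries and the replicate block 9 in the last. Without the 3 organoid libraries with the fewest reads, chosen after seeing the data, they were 1 on withdrawal in WT, 5 in KO against HET plus DHT and 7 in KO against WT minus DHT. For the other moves the cause was not tested. Leaving out each library in turn gave 1 to 3 members in the averaged withdrawal, 4 to 5 in HET against WT plus DHT, 2 to 3 in KO against WT plus DHT, 2 to 2 in KO against HET plus DHT, 4 to 7 in HET against WT minus DHT, 1 to 3 in KO against WT minus DHT, 1 to 3 in KO against HET minus DHT, 27 to 30 in tissue against organoids and 0 in the other comparisons. The lowest KO against HET minus DHT count came without HET minus DHT 2 or KO minus DHT 1, and the 7 in HET against WT without HET minus DHT 3. Among named genes, 536 values kept their call and 52 lost it over these omissions. These counts pool the 28 calls between materials with the organoid calls, and most losses were among the organoid calls. Over all alternatives, Dkk3 kept its averaged withdrawal call in 6 of 25. Wnt10a kept its call in HET against WT plus DHT in 8 of 14, and Wnt5a kept that in KO against WT plus DHT in all 14. The labels state no pairing by replicate number, and whether the numbers pair libraries was not tested. Correlations of same-numbered deviations ran from -0.517 to 0.691 over 45 organoid pairs, 17 of them over 0.1. The highest 2, 0.613 and 0.691, were in HET and KO minus DHT. Over 6 tissue pairs they ran from -0.209 to 0.408. With 2 libraries a group, both numbers of a tissue comparison must give the same value. With the replicate block the counts were 0 on withdrawal in each genotype and 3 averaged, 6, 2 and 2 in HET against WT, KO against WT and KO against HET plus DHT, 5, 3 and 3 minus DHT, 0 between tissue genotypes and 28 between materials, and of the named calls Rspo2 was lost. Members with few reads in organoids, such as Wnt5b and Sfrp4, are limited by depth.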

Other observations

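The deposited transcript estimates show differences within members that the gene sums hide. For Lrp5, an annotated nonsense-mediated decay transcript (ENSMUST00000177294) took 28.1% of pooled reads in tissue and 0.544% in organoids. It was at 0% in HET tissue 1 and between 23.4% and 42.4% in the other 5 tissue libraries. For Wif1, an annotated retained-intron transcript (ENSMUST00000145691) took 51.5% of pooled reads in tissue and 23.2% in organoids, and in single organoid libraries 9.51% to 47.2%. The highest organoid share, 47.2%, was in HET minus DHT 1, which also had 9.43% mitochondrial reads. For Wnt7b, ENSMUST00000109424 held 77.6% of reads in organoids and 72.3% in tissue. Assignments for Wnt11, Wnt5b and Wnt10b jumped between 0% and 100% of single transcripts from library to library, so no share is read from them. These shares were not tested.

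Of 4 pairs of Wnt genes that sit side by side, 2 differed in level in organoids and 2 were low in both members. Wnt3a and Wnt9a lie 16176 bases apart on chromosome 11, and in organoids Wnt9a averaged 4.66 TPM while Wnt3a had 3 reads in 18 libraries. Wnt10a and Wnt6 lie 6194 bases apart on chromosome 1, at 12.7 and 1.05 TPM. Wnt1 and Wnt10b, 11707 bases apart on chromosome 15, and Wnt3 and Wnt9b, 24329 bases apart on chromosome 11, were all under 0.2 TPM in organoids.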
